A study of Homo sapiens with 6 samples.

Results

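FOXM1, MYBL2 and 8 regulators of mitosis (CDC20, PLK1, AURKB, CCNB2, CDC25C, ESPL1, TROAP and HMMR) were followed in the human neuroblastoma line BE(2)-C. The 10 genes were taken by symbol from the 14884 genes that GEO's platform annotation names on the array, and each had 1 probe set among 53617. The genes were chosen by their log2 differences between the groups in these same arrays, so those differences are a description and carry no test. The cells hold a tet-off construct for KDM4C, a histone H3 demethylase, which doxycycline keeps silent. One group of 3 arrays came from cells grown with doxycycline (construct off) and the other group of 3 from cells grown without it (construct on), for 6 days, both in DME/F-12 medium with dialyzed serum. The labels call the samples independent but name no separate cultures, and they do not say whether the cells are 1 clone. No array of cells without the construct was analysed here, so expression of KDM4C and withdrawal of doxycycline cannot be told apart.

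FOXM1 is a forkhead transcription factor, and MYBL2 (B-MYB) a factor of the MYB family that joins the MuvB complex. MYBL2 with MuvB, and later FOXM1, turn on genes needed from G2 through mitosis, many of which carry a short promoter element called the cell cycle genes homology region (CHR) and CCAAT boxes bound by the factor NF-Y. MYBL2 itself is switched on at the entry into S phase by E2F factors. In resting or early G1 cells the same CHR elements are occupied by the repressive DREAM complex, which shares the MuvB core.

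The promoters of the regulators are shown first because the CHR and the CCAAT box are elements known from many genes that MuvB, MYBL2 and FOXM1 act on. RefSeq windows (GRCh38.p14), reaching from 250 bases before to 50 after the start site, were found for 8 of the 10 members, FOXM1 and TROAP having no entry in the table used. The 200 bases before the start site are printed 5′ to 3′ along the coding strand for the 6 members whose window held TTTGAA. Capitals mark TTTGAA (the CHR core) and CCAAT, each on either strand, so that TTCAAA and ATTGG are the same letters read from the other strand.
CCNB2: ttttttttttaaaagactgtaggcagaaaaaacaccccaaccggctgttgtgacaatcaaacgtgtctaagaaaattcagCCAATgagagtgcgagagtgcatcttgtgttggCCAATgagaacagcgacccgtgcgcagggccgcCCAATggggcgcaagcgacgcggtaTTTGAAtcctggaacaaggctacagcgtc
PLK1: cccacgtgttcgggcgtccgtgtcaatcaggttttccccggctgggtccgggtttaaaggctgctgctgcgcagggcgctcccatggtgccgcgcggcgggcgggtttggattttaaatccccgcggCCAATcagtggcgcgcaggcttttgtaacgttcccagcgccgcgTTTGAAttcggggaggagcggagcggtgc
ESPL1: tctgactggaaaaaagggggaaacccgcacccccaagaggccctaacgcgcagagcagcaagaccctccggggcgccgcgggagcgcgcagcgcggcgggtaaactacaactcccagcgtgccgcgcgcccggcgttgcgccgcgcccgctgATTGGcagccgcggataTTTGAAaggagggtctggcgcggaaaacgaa
CDC25C: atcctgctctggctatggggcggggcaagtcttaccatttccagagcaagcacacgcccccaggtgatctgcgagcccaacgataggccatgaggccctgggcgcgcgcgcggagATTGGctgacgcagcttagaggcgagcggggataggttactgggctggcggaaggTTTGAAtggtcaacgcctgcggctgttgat
HMMR: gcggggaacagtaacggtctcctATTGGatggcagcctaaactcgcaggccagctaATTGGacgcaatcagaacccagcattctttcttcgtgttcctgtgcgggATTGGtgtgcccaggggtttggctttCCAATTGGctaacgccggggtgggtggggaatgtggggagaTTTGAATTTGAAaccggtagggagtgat
CDC20: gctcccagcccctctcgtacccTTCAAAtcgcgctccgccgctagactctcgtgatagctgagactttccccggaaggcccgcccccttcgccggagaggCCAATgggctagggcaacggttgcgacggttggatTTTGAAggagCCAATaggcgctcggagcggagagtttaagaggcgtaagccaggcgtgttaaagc
These stretches lie at chr15:59104946-59105145 (plus strand) for CCNB2, chr16:23678689-23678888 (plus strand) for PLK1, chr12:53268099-53268298 (plus strand) for ESPL1, chr5:138331805-138332004 (minus strand) for CDC25C, chr5:163460432-163460631 (plus strand) for HMMR and chr1:43358781-43358980 (plus strand) for CDC20. CDC25C has 4 windows in the table, and the one printed is that with the CHR core before the start site. In another of its windows the same TTTGAA falls 44 bases after the start site.

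TTTGAA was present in 6 of the 8 members with a window, against 15.2% of all 35116 promoter windows of the same length and 12.4% of the 22198 windows of protein-coding genes. The same 6 also held CCAAT, a combination found in 5.90% of all windows, and CCAAT alone was in 7 of the 8 against 34.6%. The regulators were taken as targets of these factors, and many such targets are known to carry both elements, so the counts are not independent evidence. A member counted if any of its windows held the motif, whereas the shares of all windows are per window. Counted by gene, 1643 named genes other than the members held TTTGAA and 9098 did not. For CCAAT the counts were 4447 and 6294, and for the combination 682 and 10059. The position of the CHR core was close to the same in 5 of the 6 members that held it. Its first base lay 29 bases before the start site in CCNB2 and PLK1, 30 in CDC25C, 31 in ESPL1 and 28 in HMMR, where a second copy began at 22. In CDC20 it began 65 bases before the start site. A TTTGAA on the coding strand beginning 20 to 35 bases before the start site, bounds set after these positions were seen, was found in 0.461% of all windows. CCNB2 held CCAAT boxes 244, 120, 87 and 54 bases before the start site, spaced by 124, 33 and 33 bases. HMMR held 5, at 177, 144, 95, 69 and 66, spaced by 33, 49, 26 and 3 bases, and the pair of CDC20 was 45 bases apart. In the printed CDC25C window there was 1, and in the other window with the CHR core 3, spaced by 17 and 188 bases.

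**Figure D1:**
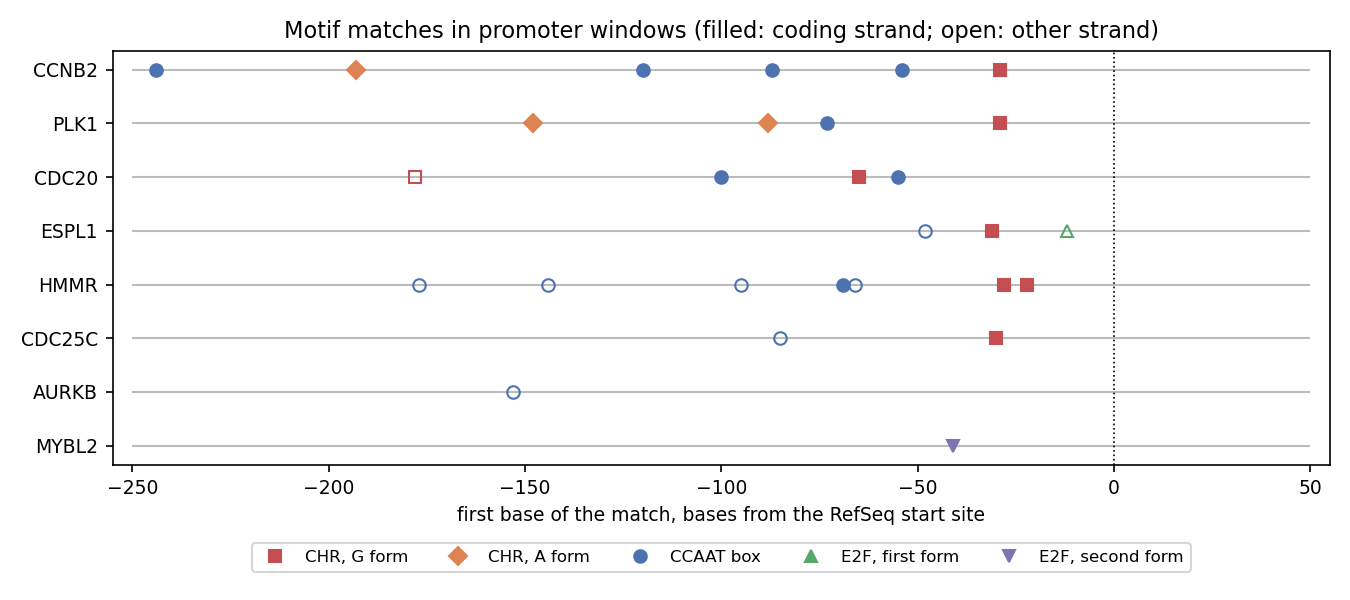
Motif matches in the promoter windows of 8 members, by the distance of the first matching base from the RefSeq start site, in bases. Red squares (TTTGAA) line up 28 to 31 bases before the start site in CCNB2, PLK1, ESPL1, HMMR and CDC25C, and neither AURKB nor MYBL2 has one. Orange diamonds are TTTAAA, blue circles CCAAT, green triangles TTTNNCGC and purple triangles TTGGCGGG.

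MYBL2 differed from the regulators in its promoter letters. Its window held neither TTTGAA nor TTTAAA nor CCAAT, but it held the E2F-type sequence TTGGCGGG, in capitals here, 41 bases before the start site (chr20:43666914-43667113 (plus strand)). That motif was added to the search after the sequence had been seen.
MYBL2: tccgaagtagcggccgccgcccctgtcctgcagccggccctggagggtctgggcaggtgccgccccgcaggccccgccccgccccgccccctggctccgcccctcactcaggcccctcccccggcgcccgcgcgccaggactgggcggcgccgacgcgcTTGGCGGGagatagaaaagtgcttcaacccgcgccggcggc
TTGGCGGG was in 1.20% of all windows, and in no other member with a window. The remaining motifs searched were each in 0 to 2 of the 8 members. The alternative CHR core TTTAAA was in PLK1 and CCNB2 (12.2% of all windows), the E2F-type TTTNNCGC in ESPL1 (6.89%), and the forkhead core TAAACA in 0 of 8 (12.3%). All were searched on both strands, and none of these motifs contains another. The overlapping windows of AURKB each held 1 CCAAT and no CHR core. A match is a description of letters and not a measured binding site, and no binding was measured here.

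The construct gene was read first as a check of the labels. KDM4C was at 7.76 ± 0.05 with doxycycline and 9.03 ± 0.05 without it (log2, SD, n = 3 each), higher without doxycycline as a tet-off construct would give, with a limma adjusted p of 0.00788. Without doxycycline replicate 1 or 2, or without untreated replicate 2 or 3, that p was 0.0597 to 0.0696, with a difference of 1.24 to 1.27. Correlations between arrays over all probe sets were 0.991 to 0.993 within the groups and 0.990 to 0.991 between them. Of the 12 markers listed for noradrenergic neuroblastoma, 8 had a named probe set, and STMN2 (12.3 with and 12.1 without doxycycline), DBH (11.0 and 11.3), TH (9.22 and 9.56) and CHGA (10.4 and 10.0) were among them. Among markers of other cells, TYROBP (immune) was at 3.35 in both groups, VWF (endothelial) at 3.04 and 3.12, KRT5 (epithelial) at 3.12 and 3.18, and SOX10 (Schwann) at 3.96 and 3.81. The array gives no detection limit, so a level this low cannot be called absent. CD68 stood at 5.74 and 5.75, KRT18 at 7.43 and 7.55, KRT8 at 4.79 and 4.72, ERG at 3.28 and 3.59, LST1 at 4.02 and 4.03, and S100B at 5.84 and 5.66. In limma 0 of the 8 noradrenergic and 0 of the 13 other markers passed an adjusted p of 0.05 in either direction (at an unadjusted p below 0.05, 2 higher and 2 lower of the former, and 1 higher and 0 lower of the latter). With trend and robust moderation of the spread CHGA passed as lower (limma adjusted p = 0.0272).

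Both transcription factors were higher without doxycycline. FOXM1 read 9.17, 9.10 and 9.25 on the arrays with doxycycline and 9.67, 9.68 and 9.69 without it (log2, replicates 1 to 3). Its lowest array without doxycycline stood 0.42 above its highest with it. The difference was 0.51 (SE 0.07), or 1.42-fold, and the arrays without doxycycline lay within 0.02 of each other. MYBL2 read 8.85, 8.97 and 8.97 with doxycycline and 9.41, 9.58 and 9.55 without. Here too the groups were apart, by 0.44, and replicate 1 was the lowest array of both groups. The MYBL2 difference was 0.58 (SE 0.08), or 1.50-fold.

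Regulators of mitotic entry were higher by similar amounts. CDC25C, the phosphatase that removes inhibitory phosphates from CDK1, read 6.06, 6.18 and 6.18 with doxycycline and 6.67, 6.87 and 6.77 without. It was the dimmest probe set of the 10 and had the widest spread without doxycycline, 0.21, yet its groups were 0.49 apart. CCNB2, a B-type cyclin that activates CDK1, read 10.80, 10.89 and 10.84 with doxycycline and 11.40, 11.39 and 11.39 without. The 3 arrays without doxycycline agreed within 0.01, the narrowest spread among the members. PLK1, the polo-like kinase that promotes mitotic entry, centrosome maturation and later steps, read 10.73, 10.82 and 10.95 with doxycycline and 11.40, 11.45 and 11.54 without. Its arrays with doxycycline spread over 0.22, the widest within-group range of the 10, and stayed 0.45 below those without. The differences were 0.63 (SE 0.08, 1.55-fold) for CDC25C, 0.55 (SE 0.06, 1.46-fold) for CCNB2 and 0.63 (SE 0.08, 1.55-fold) for PLK1.

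Regulators of anaphase and exit included a pair of genes that act in sister chromatid separation. CDC20 activates the anaphase-promoting complex, which destroys securin and cyclin B, and read 8.53, 8.61 and 8.57 with doxycycline and 9.15, 9.24 and 9.31 without. ESPL1 is separase, the protease that cuts cohesin once securin is gone, and read 7.55, 7.49 and 7.63 with doxycycline and 8.17, 8.33 and 8.25 without. In both genes the groups were 0.54 apart, and every array without doxycycline was above every array with it. AURKB, the kinase of the chromosomal passenger complex that corrects attachments and works in cytokinesis, read 8.76, 8.76 and 8.82 with doxycycline and 9.29, 9.29 and 9.42 without. Replicate 3 was the highest array of AURKB in both groups, and the groups were 0.47 apart. The differences were 0.66 (SE 0.07, 1.58-fold) for CDC20, 0.69 (SE 0.08, 1.62-fold) for ESPL1 and 0.55 (SE 0.07, 1.47-fold) for AURKB.

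The spindle proteins TROAP and HMMR completed the set. TROAP, which is needed for a bipolar spindle, read 7.25, 7.20 and 7.22 with doxycycline and 7.97, 7.90 and 7.91 without. It had the largest difference of the 10, 0.70 (SE 0.06, 1.63-fold), and the widest gap between its groups, 0.65. HMMR, a microtubule-binding protein of the spindle that is also known as a hyaluronan receptor, read 8.50, 8.53 and 8.58 with doxycycline and 9.08, 9.15 and 9.06 without. Its groups were 0.47 apart and its difference was 0.56 (SE 0.06, 1.47-fold).

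**Figure D2:**
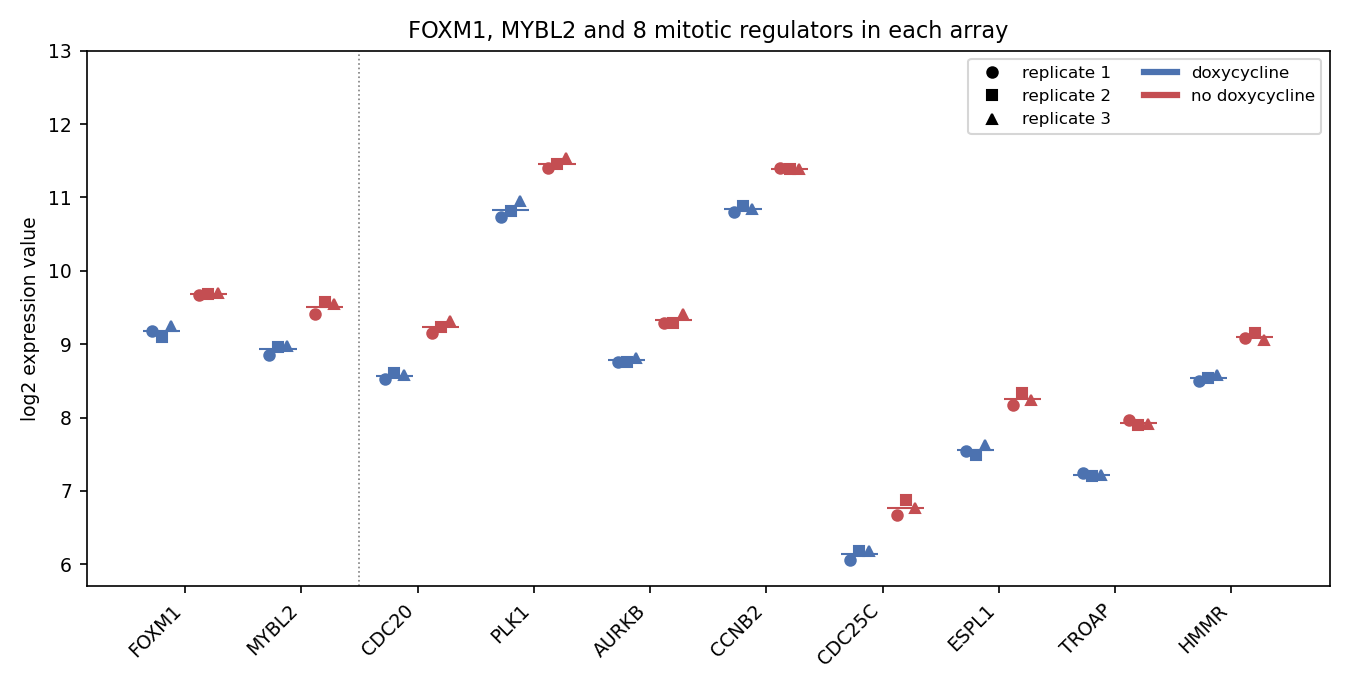
Log2 expression value of each member on each of the 6 arrays, with doxycycline in blue and without it in red, lines marking the means of 3 arrays and symbols the replicate number. In all 10 genes every red point lies above every blue point, by 0.42 (FOXM1) to 0.65 (TROAP). Heights of different genes are not comparable, since each probe set has its own brightness.

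All 10 members had an adjusted p below 0.05 in the limma fit over all probe sets, where 0.248% of probe sets were called higher and 0.0933% lower. All 10 had groups that did not overlap, which 10.2% of probe sets showed in that direction. Over named genes, read at 1 probe set each, these shares were 0.43%, 0.134% and 12.1%. Nothing is read from these counts, because the members were proposed from this contrast. With any 1 of the 6 arrays left out, the limma fit called 0 of the 10, with adjusted p between 0.0727 and 0.180 and all 10 at an unadjusted p below 0.05. The differences themselves then ran from 0.47 to 0.73. In bulk RNA a larger share of cells in G2 and mitosis and more transcript per such cell cannot be told apart.

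The members' differences lay close together. They ran from 0.51 to 0.70 with a median of 0.61, while the median of all named genes was -0.002. In rank among the 14884 genes ordered by increase, TROAP was at 59 and FOXM1 at 143. The members were chosen by these differences, so their closeness, their ranks and their distance from the median of all named genes follow in part from the choice. Neighbours in the order TROAP, ESPL1, CDC20, PLK1, CDC25C, MYBL2, HMMR, AURKB, CCNB2 and FOXM1 differed by less than 1 SE.

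**Figure D3:**
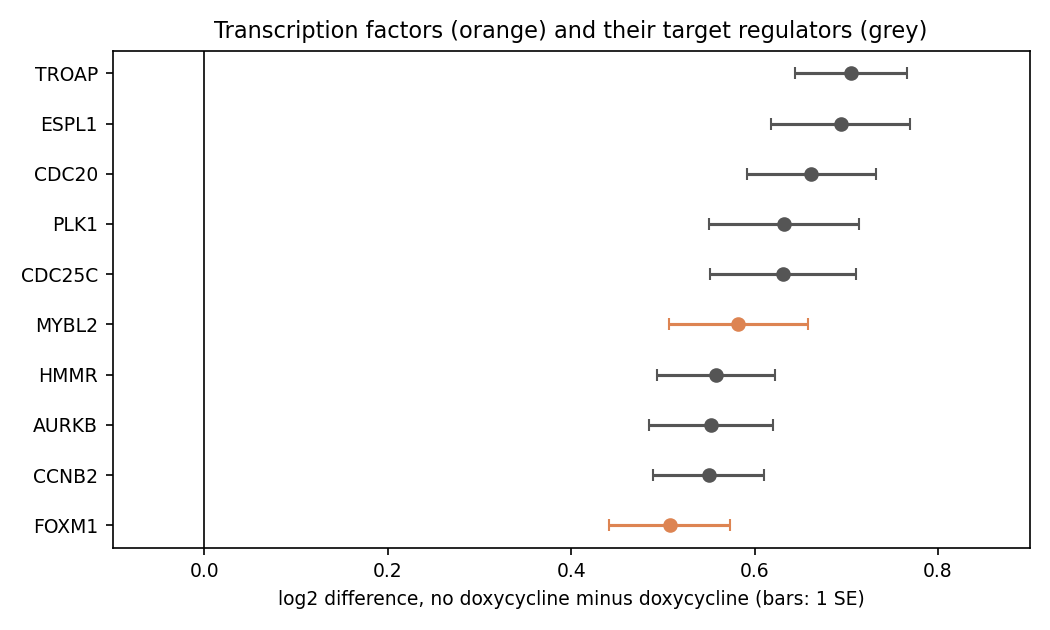
Log2 difference of each member, without minus with doxycycline, with bars of 1 SE from the limma fit (3 arrays per group). FOXM1 at 0.51 is the lowest point and MYBL2 at 0.58 lies among the regulators, which run from 0.55 to 0.70.

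Set against their target regulators, the factors were higher by slightly less. The mean difference was 0.54 for the 2 factors and 0.62 for the 8 regulators, a gap of -0.08. On each array the mean of the factors minus the mean of the regulators was 0.49, 0.48 and 0.51 with doxycycline and 0.40, 0.43 and 0.42 without. The groups did not overlap in this measure, which depends on the choice of genes and was not tested. FOXM1 alone, less the mean of the regulators, was at 0.65, 0.55 and 0.65 with doxycycline and 0.53, 0.48 and 0.49 without. Its groups were also apart, but FOXM1 had the smallest difference of the chosen genes, and this was not tested. MYBL2 by the same measure was at 0.33, 0.41 and 0.38 against 0.27, 0.37 and 0.35, and its groups overlapped. FOXM1 was lower than the regulators' mean difference by 0.12 and MYBL2 by 0.04. The SEs of their own differences were 0.07 and 0.08, and whether the 2 factors differ in this was not tested.

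Within a group the order of the arrays does not depend on the contrast that chose the members. Among arrays with doxycycline, replicate 3 was the highest for 7 of the 10 members and the lowest for 0, while over all named genes it was the highest for 34.2% and the lowest for 33.3%. Replicate 1 was the lowest for 6 of the 10 members and replicate 2 for the other 4, FOXM1, ESPL1, TROAP and AURKB. Among arrays without doxycycline, replicate 1 was the lowest for 6 members, against 34.7% of named genes. Genes read on the same arrays can share an order, so these counts are not independent over the members. The orders also rest on small steps. The median range of the 3 arrays was 0.10 with and 0.13 without doxycycline for the members, and 0.17 and 0.16 for all named genes. Unlike the order, the range is not free of the choice of members, since all 10 passed in limma and a small spread favours passing. The mean of the 10 members was 8.62, 8.65 and 8.70 on the arrays with doxycycline and 9.22, 9.29 and 9.29 on those without.

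By the root-mean-square difference of values centred on their mean over the 6 arrays, the genes most like FOXM1 were CTH, an enzyme of cysteine synthesis (0.04 on the log2 scale), JMJD8 (0.04) and EIF4EBP1, an inhibitor of translation initiation (0.04), none of them a member. The nearest member, AURKB, was at rank 6 of 14883 genes and MYBL2 at rank 52. Most like MYBL2 were CDC25C (0.03), PHGDH, the first enzyme of serine synthesis (0.04), and CDCA8 of the chromosomal passenger complex (0.04), with FOXM1 at rank 35. All of these genes differed between the groups by 0.51 to 0.63, so the likeness mostly restates the shared step between groups.

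Other G2/M genes known as targets of MuvB or FOXM1 had positive differences, and few passed the test. Of 56 listed, 43 were measured, and all 43 were above 0, from 0.02 to 0.72 (PTTG1) with a median of 0.31. In 36 of the 43 the groups did not overlap, against 12.1% of named genes in that direction. KIF20A and KIF14, kinesins of the midzone and of cytokinesis, passed the test (2 of 43, against 0.43% of named genes called higher, and unadjusted p below 0.05 for 32 higher and 0 lower). KIF20A was at 9.68 ± 0.01 with and 10.24 ± 0.06 without doxycycline (SD, n = 3 each, difference 0.57, SE 0.06, limma adjusted p = 0.0307), and KIF14 at 9.09 ± 0.07 and 9.63 ± 0.05 (0.53, SE 0.07, limma adjusted p = 0.0469). With any 1 of the 6 arrays left out, 0 of the 43 passed in limma (27 to 31 at an unadjusted p below 0.05), with adjusted p of 0.110 to 0.142 for KIF20A and 0.132 to 0.180 for KIF14. Trend and robust moderation raised the count to 9, and leaving out dim probe sets raised it to 5. Over all named genes, an unadjusted p below 0.05 was found for 7.57% upward and 6.87% downward, the background for this and the following lists. The list was drawn up with results of these data known, so its count is not independent evidence.

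The CHR core was frequent in these genes too. The list holds known targets of MuvB or FOXM1, and the CHR is known from many such targets. Its share here is therefore partly built into the list and is not independent evidence, and the same holds for E2F-type sequences in the G1/S list. TTTGAA was found in 31 of the 47 listed G2/M genes with a window, TTTGAA together with CCAAT in 24, and TTTGAA at 20 to 35 bases before the start site in 7. Of the 18 G1/S targets of E2F with a window, 1 held TTTGAA and 13 held the E2F-type TTTNNCGC, which 7 of the 47 G2/M genes held. Within the measured G2/M genes, the 24 with TTTGAA had a median difference of 0.34 and the 13 without it 0.37. Over all named genes with a window other than the members, the median was 0.01 for the 682 with both TTTGAA and CCAAT and -0.005 for the 10059 without the pair. Groups did not overlap upward in 19.4% of the former and 12.3% of the latter, and 0.293% and 0.457% were called higher.

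Partners that act beside individual members were mixed. Of 8 genes of the chromosomal passenger complex and the midzone, partners of AURKB, all had positive differences (median 0.27), KIF20A passed and 0 fell, against 0.43% and 0.134% of named genes called higher and lower, with 7 higher at an unadjusted p below 0.05. All of them but INCENP are also in the G2/M list, where KIF20A was already counted. CDCA8 (borealin), a subunit of the passenger complex, was at 0.57 (SE 0.08, limma adjusted p = 0.0629) and passed with trend and robust moderation (limma adjusted p = 0.0261) and without dim probe sets (0.0476). Of 10 genes of cohesin and separase control, 0 passed in limma (unadjusted p below 0.05 for 2 higher and 0 lower). PTTG1 (securin, the inhibitor of ESPL1) was at 0.72 (SE 0.13, limma adjusted p = 0.104) and CDCA5 (sororin, which holds cohesin on chromatin) at 0.36, while WAPL and NIPBL, which release and load cohesin, were at -0.12 and -0.02. Without untreated replicate 3 WAPL was at -0.07. The PTTG1 difference was as large as that of TROAP, with a wider spread of its arrays without doxycycline, an SD of 0.23. Of 6 spindle partners of HMMR and TROAP, KIF15 and KIF11 were at 0.35 and 0.31 and BARD1 at -0.004, with 0 passing in limma (unadjusted p below 0.05 for 2 higher and 0 lower). The groups did not overlap upward in 8 of 8 passenger and midzone genes, 4 of 10 of cohesin and separase control and 4 of 6 spindle partners. Downward this held for 0, 1 and 0, against 12.1% upward and 12.5% downward of named genes. PTTG1 and KIF11 are among those also in the G2/M list.

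The wider machinery of entry and exit had medians close to 0. Of 10 genes of the switch around CDK1, 0 passed in limma (unadjusted p below 0.05 for 2 higher and 0 lower), and the median was 0.07. CCNB1 was at 0.43 and CDC25B at 0.31, both relatives of members, whereas CDC25A, which acts mainly earlier in the cycle, was at -0.01 (95% confidence interval -0.24 to 0.22) and CHEK2 at -0.02. Of 22 subunits and regulators of the anaphase-promoting complex, the target of CDC20, 0 passed in limma (unadjusted p below 0.05 for 5 higher and 0 lower), with a median of 0.03. Its ubiquitin-conjugating enzyme UBE2S was at 0.38 and the checkpoint kinase BUB1B at 0.25. The core subunits CDC23 and ANAPC5 were at -0.13 and -0.09, and CDC23 at -0.08 without doxycycline replicate 1. Of the 22, 15 had positive and 7 negative differences, with core subunits on both sides. The groups did not overlap upward in 4 of the 10 genes around CDK1 and 6 of these 22. Downward this held for 0 and 2, against 12.1% upward and 12.5% downward of named genes. Some of these genes, among them CCNB1, CDC25B and BUB1B, are also in the G2/M list.

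Factors that cooperate with or oppose FOXM1 and MYBL2 gave 0 calls in limma, where 0.43% of named genes were called higher and 0.134% lower. Lists this short would give few or no calls at those shares, so the counts cannot show likeness to other genes. The groups did not overlap upward in 4 of 12 MuvB, DREAM and MYB genes, 4 of 9 upstream regulators and 2 of 3 FOXO factors. Downward this held for 2, 0 and 0, against 12.1% upward and 12.5% downward of named genes. Of 12 measured genes of the MuvB core, DREAM and the MYB family, 0 passed in limma (unadjusted p below 0.05 for 2 higher and 1 lower), and the median was 0.04. MYBL1, the paralog of MYBL2, was at 0.46 (SE 0.07, limma adjusted p = 0.0731) and LIN37 of the MuvB core at 0.18, while TFDP2, a dimer partner of E2F factors, was at -0.32 and the MuvB subunit RBBP4 at -0.15. TFDP2 passed as lower with trend and robust moderation (limma adjusted p = 0.0470). Of 9 upstream regulators 0 passed in limma (unadjusted p below 0.05 for 2 higher and 0 lower), with the repressive E2F7 and E2F8 at 0.34 and 0.27 and a median of 0.06. FOXO4, FOXO3 and FOXO1, forkhead factors of another family, were at 0.31, 0.43 and -0.10, with 0 of 3 passing in limma (unadjusted p below 0.05 for 2 higher and 0 lower). FOXO1 was dim, at 3.59 with and 3.49 without doxycycline, below the array medians of 3.94 to 3.96. The 2 probe sets of FOXO3 were at 0.43 and 0.14, and its arrays without doxycycline had an SD of 0.32. Without untreated replicate 1 the FOXO3 difference was 0.27, and without doxycycline replicate 2 that of RBBP4 was -0.10.

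The G1/S targets of E2F, which are active before the members in the cycle, had a median of 0.04 over 20 measured genes. In limma 0 passed (unadjusted p below 0.05 for 3 higher and 1 lower, and 0 with trend and robust moderation), and the groups did not overlap upward in 5 and downward in 2, against 12.1% and 12.5% of named genes. CDT1, a licensing factor, was at 0.39 and MCM5, a helicase subunit, at 0.23, while CCNE2 (cyclin E2) was at -0.20 and SLBP, which binds histone messages, at -0.12. The median of this list was 0.27 below that of the G2/M list, a difference given as a description and not tested.

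**Figure D4:**
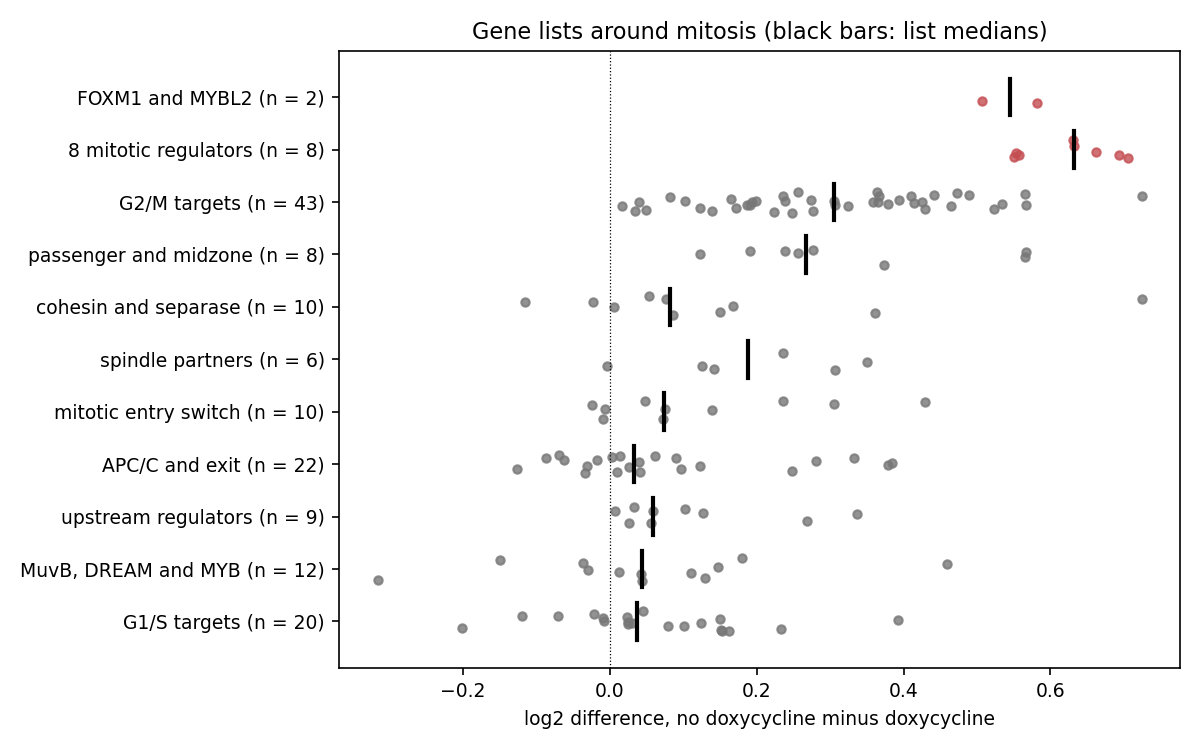
Log2 difference without minus with doxycycline for the members (red) and for genes of 9 lists around the cell cycle (grey), 1 point per gene and black bars at list medians. The members run from 0.51 to 0.70, the 43 G2/M targets have a median of 0.31 with all points above 0, and the 20 G1/S targets have a median of 0.04. Some genes stand in more than 1 list.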

How the data were processed

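Total RNA of 6 samples was measured on Affymetrix whole-transcript arrays. The deposited table holds log2 expression values, made by the authors with Partek, per the submitters' processing notes. No source used here gives the background correction, normalization or summarization. Values ran from 2.12 to 14.3, too high for another log base. Array medians were 3.94 to 3.96. The number of arrays, not a read depth, limits precision.

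All 53617 probe sets were fitted with limma 3.58.1 (R 4.3.3), without doxycycline minus with, with no covariate or filter. P-values were Benjamini-Hochberg adjusted over all probe sets, threshold 0.05. A gene with several probe sets was read from the brightest. An exact permutation test of 3 against 3 arrays cannot go below 0.1. On simulated data the procedure recovered 14.9% of probe sets changed by 0.5 log2 and 95.5% of those changed by 1, with 8 false calls among 146. A gene that did not pass is therefore not shown to be unchanged. P-values measure the spread between these samples, which may be technical.

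The members, gene lists and motifs were chosen with earlier results of these data known. Named are the members, KDM4C, the 2 genes of smallest p in each direction per list, and the 3 profiles nearest each factor. Named probe sets numbered 16098, and all of their Entrez identifiers matched the RefSeq gene table of GRCh38.p14. Alternatives were a replicate block, trend and robust moderation, quantile normalization, no dim probe sets, averaged probe sets, each array left out, and a shorter promoter window.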

Additional observations from a re-analysis of the deposited data

How the results depend on the processing

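The 10 members kept positive differences under every alternative run, between 0.47 and 0.73. With trend and robust moderation 255 probe sets were higher and 130 lower, and 9 G2/M targets passed. Without probe sets below the median level, 204 and 107 probe sets and 5 G2/M targets passed, with fewer probe sets to adjust over. The main counts were 133, 50 and 2.

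With the replicate number as a block, the limma fit called 0 probe sets higher, 0 lower, 0 of the 10 members and 0 of the G2/M targets (6251 probe sets, 10 members and 28 G2/M targets at an unadjusted p below 0.05). The block leaves fewer degrees of freedom. Same-numbered arrays deviated from their group means with correlations of -0.012, -0.014 and 0.041, and not every array correlated best with its own number, so the numbers were not taken as pairs.

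Leaving out 1 array gave 0 to 12 probe sets higher and 0 to 3 lower, a member median of 0.56 to 0.65, and 0 to 0 members and G2/M targets called (limma, 5542 to 6191 probe sets at an unadjusted p below 0.05). KDM4C stayed between 1.24 and 1.29, with limma adjusted p from 0.0311 to 0.0696, and lost its call without doxycycline replicate 1 or 2 and without untreated replicate 2 or 3. Genes with differences near 0 changed sign, and the cause was not tested. With quantile normalization BARD1 was at 0.0007 and LST1 at -0.0046. With probe sets averaged LST1 was at -0.036 and KRT18 at -0.01. Over the left-out arrays BARD1 ran from -0.063 to 0.042, CD68 from -0.026 to 0.045, CDC25A from -0.071 to 0.085, CHEK2 from -0.070 to 0.054, KRT8 from -0.14 to 0.057, LST1 from -0.067 to 0.062 and TYROBP from -0.10 to 0.093. The count of members with TTTGAA was 6 in the shorter window too.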
